A study of Mus musculus with 4 samples.

Results

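The genes of activator protein 1 (AP-1) in these data were Fos, Fosb, Fosl1, Fosl2, Jun, Junb, Jund, Atf3 and Batf, 9 of the 21887 mouse protein-coding genes of the RefSeq table used for gene positions. They were chosen by name as members of the AP-1 family. A peak or merged region was counted for a gene where it touched the gene body or fell no farther than 10 kb from it in mm10. All 9 genes had such a region, as did 15882 autosomal protein-coding genes in all. The 21887 genes are not limited to autosomes, so these counts do not give a share of genes with a region. Open chromatin was mapped by ATAC-seq, in which a transposase cuts and tags accessible DNA, in lung tumour tissue of C57B6J mice aged 55 weeks. The KrasLA1/+ group had 2 libraries and the KrasLA1/+;Dicer1S2D/+ group had 2, replicate 1 of each being female and replicate 2 male. KrasLA1, carried by every mouse, is a latent oncogenic allele that becomes active by spontaneous recombination. Dicer1S2D, carried as 1 copy by the second group only, is a phosphomimetic allele of Dicer1, the enzyme that cuts microRNA precursors. The labels do not say if tissue of several tumours was pooled.

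AP-1 is a family of basic leucine zipper proteins that bind DNA as dimers. JUN proteins pair with themselves or with FOS proteins, while ATF3 and BATF pair with JUN proteins and give dimers of other activity. The family is best known for its fast induction by growth factor, stress and RAS-MAP kinase signals, and its dimers are found at many enhancers in epithelial tumours, lung included.

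The deposited values are the positions of peaks called in each library on its own, with no read count, height or score, so a peak is present or absent and has a width. The first and second KrasLA1 libraries had 41621 and 44654 peaks, and those of KrasLA1;Dicer1S2D had 50282 and 34767. They covered 22.68, 27.86, 24.96 and 18.98 Mb in that order, and the median peak was 453, 534, 410 and 468 bp wide. The read depth of the libraries is unknown, so a region with no peak in a library is not shown to be closed there. In bulk tissue, fewer cells of a type and less accessible DNA per cell cannot be told apart. Of 7 epithelial marker genes, 7 were open in every library, meaning that a peak came within 2 kb of either end. They were Nkx2-1, Sftpc, Sftpb, Epcam, Cdh1, Krt8 and Krt18, and the share of all genes open by this rule is not given. The count of open markers was 1, 2, 1 and 1 of 4 for leukocyte markers, with Spi1 open in every library, Ptprc in KrasLA1 replicate 2 only, and Cd3e and Csf1r in none. It was 0 of 3 for endothelial markers in every library, 2, 2, 2 and 1 of 4 for fibroblast markers, and 0, 0, 1 and 0 of 4 for markers of tissues not sampled, where the 1 was the liver gene Alb in KrasLA1;Dicer1S2D replicate 1. The Dicer1S2D allele itself cannot be checked from peak positions.

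The AP-1 genes carried an open chromatin pattern that was largely shared by the 4 tumour samples. They had 29 merged regions, of which 23 were called in all 4 libraries (79.3%), against 43.5% of the 60713 autosomal regions. Those autosomal regions were taken at any distance from a gene, and shares for regions near genes alone are not given. For the other pathway lists described below, the share called in all 4 libraries was 56.4%, 62.2% and 51.3%. The part of nearness to genes in the difference was not tested. A single library called 5 of the 29 (17.2%), against 27.7% of all regions. Only 1 region was called in both KrasLA1 libraries and in neither KrasLA1;Dicer1S2D library, a pattern called lost here (3.45% of the 29, against 1.42% of all regions). None of the 29 had the reverse pattern, called gained, which 0.596% of all regions had. By gene, Batf was the 1 of 9 with a lost region, where 4.87% of the 15882 genes had one, and 0 of 9 had a gained region, where 1.78% of genes had one. With 2 libraries against 2, presence has no test that can pass a threshold of 0.05, and these counts are descriptions.

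**Figure D1:**
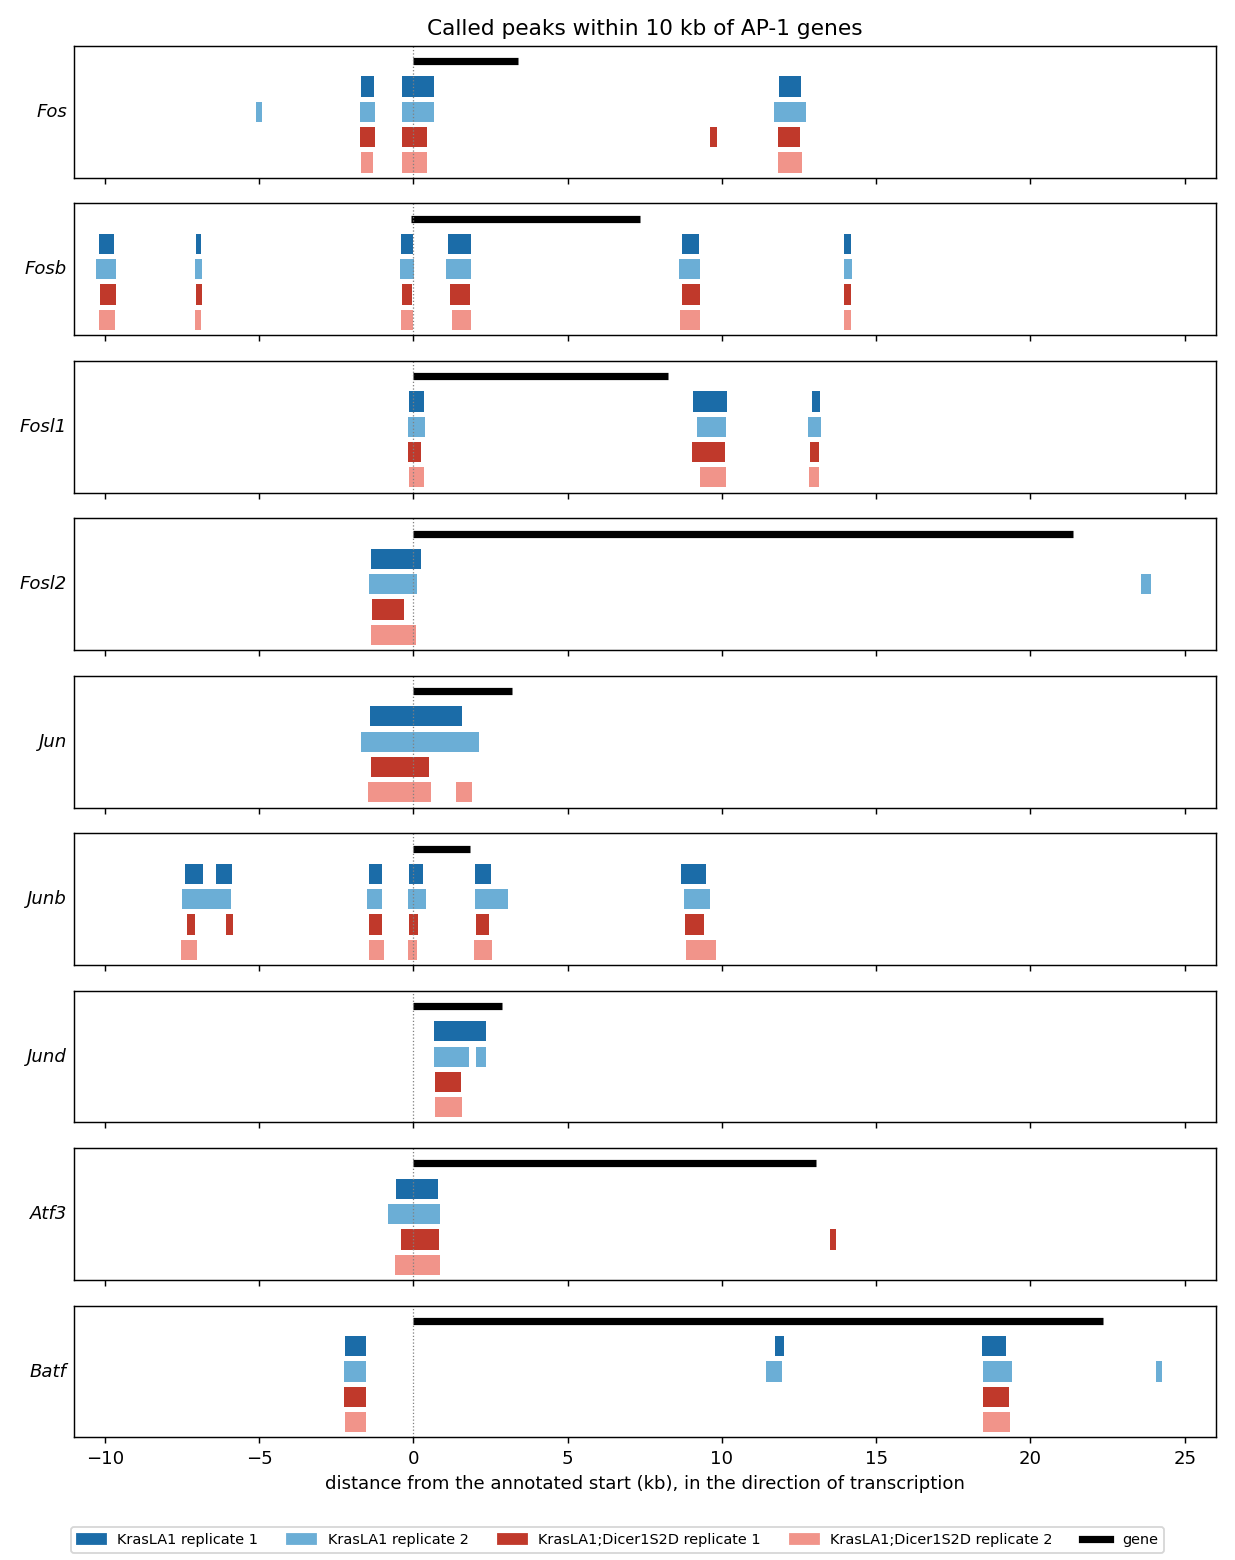
Peaks of each library around the 9 AP-1 genes, drawn by distance in kb from the annotated start in the direction of transcription; Fosl1 is drawn from its low-coordinate end. Each coloured bar is a peak, the rows within a gene are the libraries and the black bar is the gene; 23 of 29 regions are filled in all 4 rows, and the Batf region 11440 bp downstream of the start is filled in the KrasLA1 rows only.

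Summed over the 9 genes, peaks numbered 25 and 28 in the KrasLA1 libraries and 26 and 24 in the KrasLA1;Dicer1S2D libraries, and the groups overlapped. The means were 26.5 ± 2.12 and 25 ± 1.41 (SD, n = 2 each), with an exact two-sided permutation p = 0.667. The bases under those peaks were 19247 and 23286 in the KrasLA1 libraries and 15401 and 16866 in the KrasLA1;Dicer1S2D libraries. Both KrasLA1;Dicer1S2D values lay below both KrasLA1 values, and the means differed by -5133 bases (exact two-sided permutation p = 0.333, the smallest that 2 against 2 allows). The difference was -3113.5 without KrasLA1 replicate 2 and -7152.5 without KrasLA1 replicate 1. Set against all peak-covered bases of the same library, AP-1 genes held 849 and 836 bases per Mb in the KrasLA1 libraries and 617 and 889 in the KrasLA1;Dicer1S2D libraries. On that scale the groups overlapped, with KrasLA1;Dicer1S2D replicate 1 lowest and replicate 2 highest (exact permutation p = 1). AP-1 peaks per 10000 peaks of the library were 6.01, 6.27, 5.17 and 6.90 in the same order, and here too replicate 1 and replicate 2 of the KrasLA1;Dicer1S2D group lay at the ends of the range.

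The genes differed in how much of their surroundings was open. Averaged over the 4 libraries, the peak-covered length per kb of window was 149 bp at Junb, 122 bp at Jun, 97.6 bp at Fos and 92.8 bp at Fosb. It was 64.0 bp at Fosl1, 53.2 bp at Jund, 44.8 bp at Atf3, 42.4 bp at Batf and 36.0 bp at Fosl2. The median of the 9 genes was 64.0 bp per kb and that of all genes was 27.8 bp per kb. The window is the gene body plus 10 kb on either side, so for equal covered length a longer gene has a lower value. In KrasLA1 replicate 1, 1621 covered bases gave 39.2 bp per kb at Fosl2, and 1695 gave 74.1 at Jund, a shorter gene. Gene lengths were not matched, and the part of gene length in the order and in the medians was not tested. The SD over the 4 libraries was 45.5 bp at Junb, 35.1 bp at Jun, 14.6 bp at Fos, 7.24 bp at Fosb and 3.16 bp at Fosl1. Neighbours in that order overlapped in their libraries, except that every library of Fosb, the lowest at 87.7 bp per kb, lay above every library of Fosl1, the highest at 66.9 bp per kb. The AP-1 genes and all genes each had a median of 3 regions a gene.

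**Figure D2:**
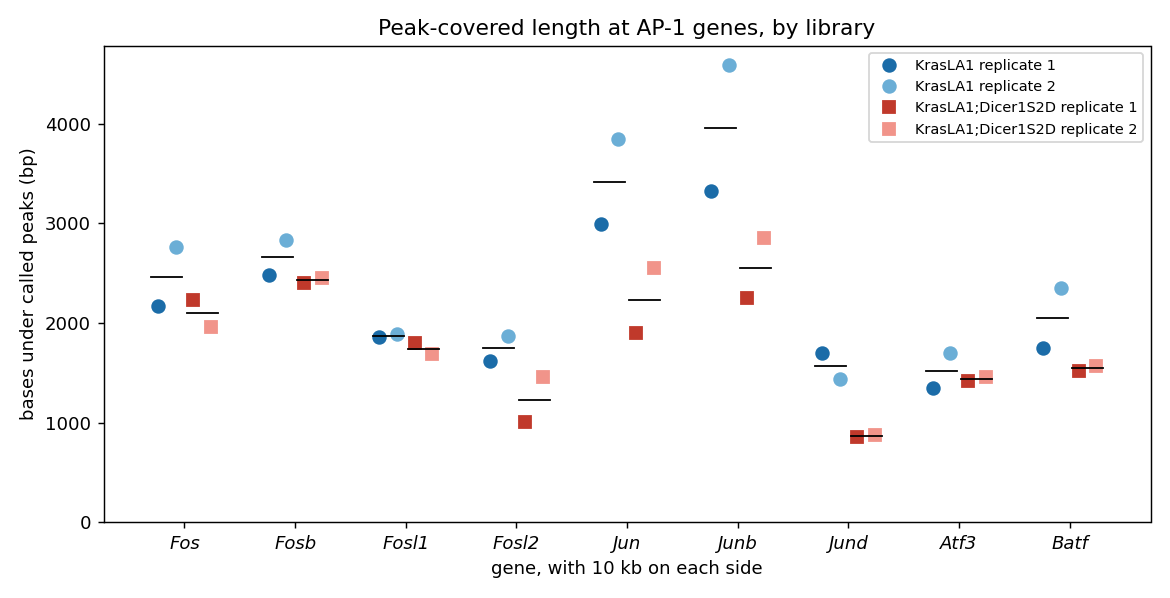
Peak-covered bases in the window of each AP-1 gene, 1 point per library, coloured by genotype, with a line at each group mean. The points of KrasLA1;Dicer1S2D lie below both KrasLA1 points at 7 genes and overlap them at Fos and Atf3. Of all genes, 30.4% lie lower in that sense. Scaling to the library leaves 1 or 3 of the 9 (10.3% or 11.8% of all genes).

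Promoter windows from RefSeq for GRCm38.p6, the assembly of mm10, were matched for 8 of the 9 genes, 250 bases before to 50 after the start. For each gene the first start listed was used, which need not be its main start. The windows of Fos, Jun and Atf3 are printed because a peak covered the start in all 4 libraries and a sequence near the cyclic AMP response element TGACGTCA lies in them. Those of Batf and Jund are printed because no library had a peak over the start. Capitals mark sequences that differ from TGACGTCA by at most 1 base, and TGACG, the half-site of that element, where a script found them on either strand.
Fos promoter, chr12:85473640-85473939, plus strand: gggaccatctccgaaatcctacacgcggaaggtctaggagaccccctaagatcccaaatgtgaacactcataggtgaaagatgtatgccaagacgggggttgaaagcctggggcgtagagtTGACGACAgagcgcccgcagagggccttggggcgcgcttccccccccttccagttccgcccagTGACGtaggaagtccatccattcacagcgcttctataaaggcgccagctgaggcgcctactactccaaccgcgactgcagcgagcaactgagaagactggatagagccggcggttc
Jun promoter, chr4:95052173-95052472, minus strand: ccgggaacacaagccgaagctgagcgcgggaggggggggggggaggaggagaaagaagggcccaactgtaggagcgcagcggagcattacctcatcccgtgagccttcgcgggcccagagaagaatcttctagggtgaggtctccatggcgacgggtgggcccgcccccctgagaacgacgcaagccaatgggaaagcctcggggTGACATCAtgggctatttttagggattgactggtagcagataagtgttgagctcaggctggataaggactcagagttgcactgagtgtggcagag
Atf3 promoter, chr1:191183284-191183583, minus strand: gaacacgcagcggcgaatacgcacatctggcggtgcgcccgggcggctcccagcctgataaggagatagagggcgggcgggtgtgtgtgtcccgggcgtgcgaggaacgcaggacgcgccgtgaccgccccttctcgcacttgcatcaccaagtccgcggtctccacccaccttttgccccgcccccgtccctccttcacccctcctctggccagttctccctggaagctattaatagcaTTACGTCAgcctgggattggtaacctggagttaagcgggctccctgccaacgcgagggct
Batf promoter, chr12:85686470-85686769, plus strand: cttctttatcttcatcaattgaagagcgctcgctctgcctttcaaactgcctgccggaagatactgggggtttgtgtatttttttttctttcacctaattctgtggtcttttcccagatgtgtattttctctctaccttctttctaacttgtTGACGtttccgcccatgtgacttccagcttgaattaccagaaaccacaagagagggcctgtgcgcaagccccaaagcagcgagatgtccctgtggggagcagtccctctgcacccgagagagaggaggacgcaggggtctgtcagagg
Jund promoter, chr8:70697489-70697788, plus strand: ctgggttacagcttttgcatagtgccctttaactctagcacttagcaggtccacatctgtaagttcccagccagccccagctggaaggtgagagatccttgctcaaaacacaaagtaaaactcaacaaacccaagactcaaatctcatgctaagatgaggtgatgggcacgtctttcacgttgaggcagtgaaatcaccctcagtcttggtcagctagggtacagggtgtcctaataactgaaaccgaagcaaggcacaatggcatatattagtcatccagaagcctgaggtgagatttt

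The classical AP-1 site TGANTCA, the element TGACGTCA and the CArG box bound by serum response factor were each in 0 of the 8 windows, searched on both strands. Sequence farther than 250 bases before a start was not searched, so a 0 does not show that a gene lacks such an element. They were in 7.81%, 1.79% and 1.63% of the 32851 promoter windows of the table. A sequence within 1 base of TGACGTCA was in 3 of 8, TGACGACA in Fos, TGACATCA in Jun and TTACGTCA in Atf3, and in 12.5% of all windows. The half-site TGACG, which those matches can overlap, was in 5 of 8 windows, those of Fos, Fosb, Junb, Atf3 and Batf, and in 20.8% of all windows. Both looser searches were added after the exact ones were seen, and a match is a description of letters and not a binding site. GC content was 46.7% at Jund and 49.7% at Batf, below the median of all windows of 52.7%, and ran from 58.7% at Fos to 68.3% at Fosb in the other 6. CG dinucleotides numbered 3 at Jund and 9 at Batf and 15 to 32 in the other 6, beside a median of 7.

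A peak lay over the annotated start, the first listed, in all 4 libraries at Fos, Jun, Junb and Atf3. It did so for 45.8% of the 16457 genes with a start in the table, while 46.0% of those genes had none in any library. At Fosl2 it did in 3, and in KrasLA1;Dicer1S2D replicate 1 the peak ended 323 bp upstream. At Fosb the start was covered in KrasLA1 replicate 2 only, and the peaks of KrasLA1 replicate 1 and KrasLA1;Dicer1S2D replicates 1 and 2 ended 24, 45 and 23 bp short of it. At Jund the nearest peak began 659 to 689 bp downstream, inside the gene, and at Batf it ended at -1554 to -1544 bp from the start. Fosl1 has no entry in the promoter table.

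Among the FOS genes, which encode partners that need a JUN protein to bind DNA, every region of Fosb and Fosl1, 3 of 5 of Fos and 1 of 2 of Fosl2 were called in all 4 libraries. Fos (chr12:85473890-85477274), an immediate early gene, had 2172 and 2763 covered bases in the KrasLA1 libraries and 2233 and 1962 in the KrasLA1;Dicer1S2D libraries. The groups overlapped, since KrasLA1;Dicer1S2D replicate 1 lay above KrasLA1 replicate 1. Its 5 regions comprised 3 called in all 4 libraries, at the start (chr12:85473503-85474553), 1258 bp upstream and 11688 bp downstream of it (chr12:85485578-85486617). The region 4913 bp upstream, chr12:85468773-85468977, was called in KrasLA1 replicate 2 only. The region 9606 bp downstream, chr12:85483496-85483714, was called in KrasLA1;Dicer1S2D replicate 1 only. Fosb (chr7:19302696-19310118) had 6 regions, and all 6 were called in every library. Its covered bases were 2482 and 2838 against 2405 and 2451, lower in both KrasLA1;Dicer1S2D libraries, with KrasLA1;Dicer1S2D replicate 2 close to KrasLA1 replicate 1. The widest region lay inside the gene, chr7:19308173-19308995, and the next, chr7:19300766-19301426, overlapped the start of Gm26802. Another overlapped the neighbour Rtn2.

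Fosl1 (chr19:5447698-5455938), which encodes FRA-1, had 3 regions called in every library. Its covered bases were 1856 and 1890 against 1802 and 1686, the narrowest spread of the FOS genes. Both regions outside the gene overlapped a neighbour, Ccdc85b (chr19:5456715-5457869) or Fibp. The region in Fosl1 itself, chr19:5447528-5448062, was 478 and 535 bp wide in the KrasLA1 libraries and 406 and 503 bp in the KrasLA1;Dicer1S2D libraries, which overlapped. Fosl2 (chr5:32136472-32157840), which encodes FRA-2, had a single region in every library, over its start (chr5:32135026-32136720), and a further region of 323 bp past its end (chr5:32160046-32160368) in KrasLA1 replicate 2 only. Its covered bases were 1621 and 1869 against 1010 and 1455, so that KrasLA1;Dicer1S2D replicate 1 was the lowest of the 4 and the groups did not overlap.

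The JUN genes, whose products can bind DNA with or without a FOS partner, had every one of their regions called in all 4 libraries, 7 of 7, and less covered length in both KrasLA1;Dicer1S2D libraries at each gene, which 30.4% of the 13986 genes covered in all 4 libraries also had. Scaled to all covered bases of the library, Jund alone of the 3 kept that order (10.3% of all genes). Scaled to the median gene of each library, all 3 kept it (11.8% of all genes). Jun (chr4:95049036-95052222), the first JUN gene known, had 1 region of 3847 bp, chr4:95050091-95053937, which reached from upstream of its start into the gene and overlapped Junos, an antisense RNA gene. It had 2993 and 3847 covered bases in the KrasLA1 libraries and 1905 and 2554 in the KrasLA1;Dicer1S2D libraries. The groups did not overlap, and in KrasLA1;Dicer1S2D replicate 2 the region was called as 2 peaks, of which the one over the start was 2032 bp wide. Junb (chr8:84976909-84978748), often a brake on JUN-driven growth, had 5 regions. Its covered bases were 3326 and 4596 against 2254 and 2853, again without overlap.

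The difference at Junb was largest in 1 of the 5 regions, at -5858 bp from the start, chr8:84984606-84986283. Peaks there covered 1104 and 1620 bp in the KrasLA1 libraries and 461 and 511 bp in the KrasLA1;Dicer1S2D libraries, and in replicate 1 of each group they were 2 separate peaks. The region lies closer to the start of Hook2, at 4340 bp, than to that of Junb, and it cannot be assigned to either gene from these data. The region over the Junb start was 437 and 580 bp against 295 and 303 bp, while the region 968 bp upstream was 445 and 487 bp against 435 and 488 bp. In 2 of the 5 regions, the upstream one and the start region, the groups did not overlap. In the other 3, which include chr8:84968935-84970064 over Prdx2 and Rnaseh2a, they did. Jund (chr8:70697739-70700616), the member expressed most steadily in many tissues, had 1 region, chr8:70698398-70700092, inside the gene. Peaks covered 1695 and 1440 bp of it against 856 and 874 bp, and the groups did not overlap. In KrasLA1 replicate 2 it was called as 2 peaks.

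Atf3 (chr1:191170296-191183333), a stress-induced member that often represses as a homodimer, had 1349 and 1695 covered bases against 1419 and 1458. The KrasLA1;Dicer1S2D values lay between those of KrasLA1, and its start region, chr1:191182473-191184167, was called in all 4 libraries. A region of 193 bp past its end, chr1:191169633-191169825, was called in KrasLA1;Dicer1S2D replicate 1 only. Batf (chr12:85686720-85709087), best known in lymphocytes, had 1753 and 2348 covered bases against 1517 and 1573, without overlap. It held the lost region, chr12:85698160-85698735, where peaks were 285 and 506 bp wide in the KrasLA1 libraries and none was called in the KrasLA1;Dicer1S2D libraries. With only the widest 75% of each library's peaks this region no longer met the rule and 0 regions were lost. Without KrasLA1 replicate 1 the count at AP-1 genes was 4, where a peak in KrasLA1 replicate 2 alone met the rule. The other regions of Batf called in all 4 libraries were 675, 714, 690 and 690 bp wide upstream of the gene (chr12:85684463-85685176) and 793, 930, 827 and 883 bp wide within it (chr12:85705147-85706124). At both, the groups overlapped. A region of 198 bp past the gene, chr12:85710802-85710999, was called in KrasLA1 replicate 2 only. Of the leukocyte markers, Ptprc was open in KrasLA1 replicate 2 only, Spi1 in every library, and Cd3e and Csf1r in none. Covered bases summed over these markers were 2878 and 4672 in the KrasLA1 libraries and 4258 and 2047 in the KrasLA1;Dicer1S2D libraries, which overlapped. The part of leukocytes in the Batf pattern was not tested.

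Covered length was thus lower in both KrasLA1;Dicer1S2D libraries than in both KrasLA1 libraries at 7 of the 9 genes and higher at 0. Of the 13986 genes covered in all 4 libraries, 30.4% were lower in that sense and 1.92% higher, so lower was the more frequent direction among all genes too. The part of a difference between whole libraries in the values of the 9 genes was not tested. The median log2 ratio of group means was -0.41 over the 9 genes and -0.18 over all genes, and the mean was lower at 9 of 9 and at 80.1% of genes. Scaled to all covered bases of the library, 1 of 9 stayed without overlap on the lower side, Jund (10.3% of all genes). Scaled to the median gene of each library, 3 of 9 did, Jun, Junb and Jund (11.8% of all genes). Both scalings were added after the data were seen.

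The test across genes used limma on log2(covered bases + 100) centred on each library's median gene, which understates the change of genes with little coverage. Of 15882 genes, 0 had a Benjamini-Hochberg adjusted p under 0.05 (percent called 0), and 292 had an unadjusted p under 0.05. Without KrasLA1 replicate 2 limma called 9 genes. Among the AP-1 genes the estimates were lowest for the JUN genes, at -0.42 (SE 0.26) for Jun, -0.43 (SE 0.25) for Junb and -0.61 (SE 0.27) for Jund. Without KrasLA1;Dicer1S2D replicate 1 they were -0.0948, -0.14 and -0.47. The next were -0.31 (SE 0.29) for Fosl2 and -0.20 (SE 0.21) for Batf. Fos, Fosb, Fosl1 and Atf3 lay between -0.04 and 0.11, each less than its SE. All 9 had an adjusted p of 0.99999 in limma, and none passed. The median estimate was -0.20 over the 9 genes and 0.01 over all genes.

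Peak width, taken as all bases under a library's peaks in a region, was tested with limma over the 26402 regions called in all 4 libraries. It called 0 (percent called 0), with 770 at an unadjusted p under 0.05 (2.92%). Of the 23 AP-1 regions, 3 had an unadjusted p under 0.05 and all had an adjusted p of 0.999. The region upstream of Junb had a log2 width difference of -1.30 (SE 0.24). The Jund region had -0.69 (SE 0.25) and the Junb start region -0.59 (SE 0.21). All 3 had fewer bases under peaks in both KrasLA1;Dicer1S2D libraries than in both KrasLA1 libraries. The median over the 23 was 0.00 against 0.04 over all regions, and 11 of the 23 were negative, where 43.5% of all regions were.

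**Figure D3:**
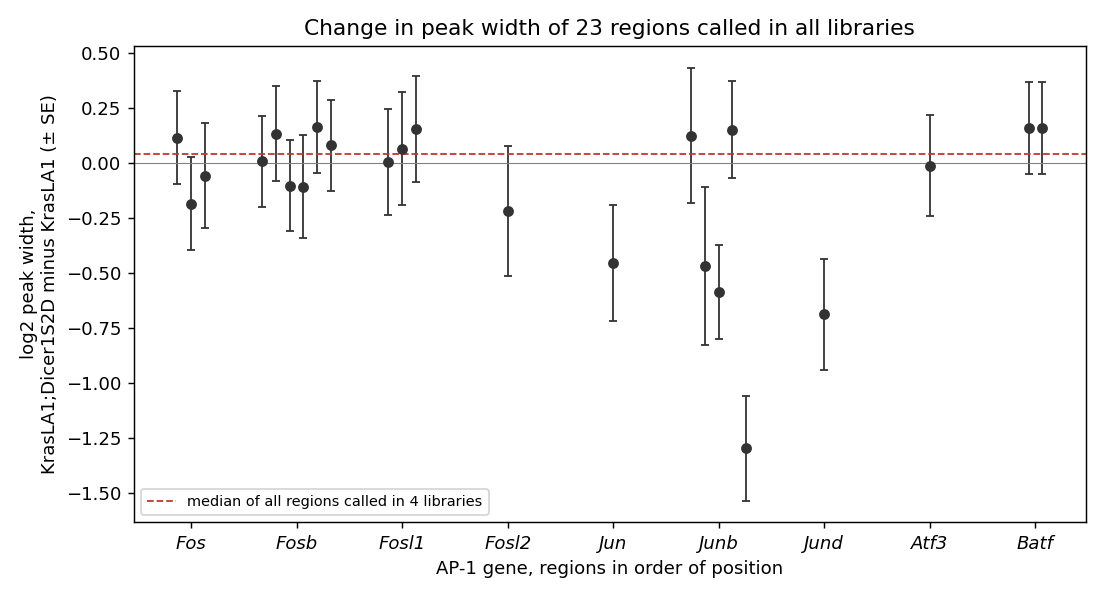
Log2 width difference, KrasLA1;Dicer1S2D minus KrasLA1, of the 23 AP-1 regions called in all 4 libraries, centred on the library median. Width is all bases under a library's peaks in the region. SE bars are from limma and a dashed line marks the median of all regions called in all 4. The Junb upstream region at -1.30 lies farthest from 0, and 20 of the regions have an unadjusted p above 0.05.

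Other genes of the pathway were taken from lists. The 13 further basic leucine zipper partners of AP-1 had 39 regions, 22 of them called in all 4 libraries (56.4%), with 0 genes holding a lost and 0 a gained region. Their median log2 ratio of covered length was -0.11, and 3 of the 11 covered in all 4 libraries were lower without overlap and 0 higher, beside 30.4% and 1.92% of all genes. The 13 kinases and factors upstream of AP-1 had 45 regions, 28 called in all 4 libraries (62.2%), with 0 genes with a lost region, a median log2 ratio of -0.20 and 4 of 13 genes lower without overlap. A gained region lay at 2 of them, beside 1.78% of all genes, and each lay outside the gene. At Elk4, a ternary complex factor that MAP kinases activate at the Fos promoter, it was chr1:132006117-132006317, 1259 bp from the gene. Its peaks were 195 and 182 bp wide, in the KrasLA1;Dicer1S2D libraries only. At Mapk8, the JNK1 kinase that phosphorylates JUN, it was chr14:33371191-33371524, 6373 bp from the gene, with peaks of 331 and 171 bp.

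The 14 known AP-1 target genes had 39 regions, 20 in all 4 libraries (51.3%), at 12 genes, since Mmp13 and Timp1 had none. The gelatinase gene Mmp9 alone of the 14 had a lost region, beside 4.87% of all genes. It was chr2:164961645-164961971, outside the gene at 5794 bp from it. Peaks there were 257 and 327 bp wide in the KrasLA1 libraries and none was called in the KrasLA1;Dicer1S2D libraries. KrasLA1;Dicer1S2D replicate 2 had no peak at all at Mmp9. Of the 14, 0 had a gained region. Their median log2 ratio was -0.09, and 2 of the 9 covered in all 4 libraries were lower without overlap and 0 higher. Each of these counts of lower genes is near the 30.4% of all genes or below it. These 3 lists had 1 lost and 2 gained genes among them, and the shares of all genes with a lost or gained region are given above.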

How the data were processed

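ATAC-seq libraries of 4 samples, 2 KrasLA1/+ and 2 KrasLA1/+;Dicer1S2D/+, were grouped by the genotype in the labels. Per the file headers, the authors deposited 5 tracks of mm10 intervals, 4 of library peaks and 1 of merged regions, with no count or score. BWA 0.7.12, MACS3 3.0.0 and deepTools 3.5.1 are named per the submitters' processing notes. Not given in the sources used here are their roles, the peak threshold, filters, read depths and any shift of reads for the transposase, and a peak missing in a shallower library can be a matter of that threshold. Of the columns, 0 belonged to no sample.

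Overlapping peaks were merged, which gave the authors' 61972 regions. Backgrounds use the autosomes. Gene positions, promoters and starts came from RefSeq tables for GRCm38.p6. Group means were compared by exact two-sided permutation tests. Covered length, log2(bases + 100), and peak width were tested with limma 3.58.1 in R 4.3.3, with Benjamini-Hochberg adjustment over all genes or regions. Counts used Python 3.11.15 with numpy 2.4.6, permutation tests scipy 1.17.1 and plots matplotlib 3.10.9. The functions that merge peaks and count them and their bases, and the limma fit of covered length, were tested on simulated data. p-values measure the spread between these 4 samples only. The members and lists were chosen with earlier results of these data known. Every member was named, and list genes with a lost or gained region. Of the leukocyte markers listed, 1 is not reported here. Alternatives changed the window, peak width filter, overlap for merging, pseudocount, gene filter, normalization and replicate block, and left out each library.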

Additional observations from a re-analysis of the deposited data

Results flagged for a closer look

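The groups differed in opposite directions in the 2 replicate pairs, female and male, for several values, and the difference between the pairs was not tested. Peaks at AP-1 genes differed by 1 (KrasLA1;Dicer1S2D minus KrasLA1) in replicate 1 and by -4 in replicate 2. AP-1 peaks per 10000 peaks of the library differed by -0.836 in replicate 1 and by 0.633 in replicate 2. Covered bases at Fos differed by 61 in replicate 1 and by -801 in replicate 2. Covered bases at Atf3 differed by 70 in replicate 1 and by -237 in replicate 2.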

How the results depend on the processing

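Each pair of values below is the lowest and highest with 1 library left out, where a group of 1 has no permutation test and limma assumes that the lone sample varies like the other group. The difference in AP-1 peaks ran from -3 to 0, with 0 without KrasLA1 replicate 2. The difference in AP-1 peaks per 10000 ran from -0.968 to 0.765 and was also positive with the widest 75% of peaks, at 0.222, and with peaks of at least 200 bp, at 0.113. Lost regions ran from 1 to 4, with 4 without KrasLA1 replicate 1, and were 2 in a 50 kb window and 0 with the widest 75% of peaks. Gained regions ran from 0 to 2, with 2 without KrasLA1;Dicer1S2D replicate 2, and were 1 in a 50 kb window. Leaving out a library loosens the rule for every region, and shares of all regions are not given for those runs. The count of 7 genes with lower coverage ran from 7 to 9. Without KrasLA1 replicate 1 it was 9 and without KrasLA1;Dicer1S2D replicate 1 it was 8 (65.2% of all genes each). It was 7 without KrasLA1 replicate 2 (40.8% of all genes) and 7 without KrasLA1;Dicer1S2D replicate 2 (38.2%). Without KrasLA1 replicate 2, 1 gene, Atf3, was higher (21.9% of all genes). Under the 2 scalings the count of lower genes was 1 (10.3%) and 3 (11.8%), and in a 50 kb window 5 (29.7%). With the widest 75% of peaks or those of at least 200 bp it was 6 (31.8% each). Genes called by limma ran from 0 to 9, with 9 without KrasLA1 replicate 2. With a replicate block limma called 15 genes, none an AP-1 gene; deviations of same-numbered samples correlated at 0.206 over 2 pairs, which share a number and a sex only. The cause of these changes was not tested.

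Of 90 alternative values of the 9 genes, 83 kept their direction and 7 reversed, with adjusted limma p from 0.901 to 0.99999. Log2 covered length at Fosb was -0.0124 in a 2 kb window and ran from -0.0892 to 0.191. It ran from -0.101 to 0.0155 at Fos, from -0.0194 to 0.173 at Fosl1, from -0.682 to 0.0585 at Fosl2 and from -0.0387 to 0.252 at Atf3. Jun, Junb, Jund and Batf were negative in every alternative run, but their size moved: from -0.754 to -0.0948 at Jun, -0.721 to -0.14 at Junb, -0.829 to -0.391 at Jund and -0.35 to -0.0463 at Batf. Widths and positions of peaks carry no depth, so a small difference in accessibility cannot be measured here.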

Other observations

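Fos and Batf lie on the same chromosome with Jdp2, another basic leucine zipper gene, between them. The gap is 121381 bp between Fos and Jdp2 and 46841 bp between Jdp2 and Batf. Between Fos and Batf lay 14 regions, of which 6 were called in all 4 libraries, 0 lost and 0 gained. Batf3 and Atf3 lie 61352 bp apart. In a window of 50 kb, a lost region lay near Junb in Best2 at chr8:85013310-85013623, with peaks of 278 and 238 bp in the KrasLA1 libraries only, and a gained region lay near Batf in Flvcr2 at chr12:85758789-85759210, with peaks of 407 and 401 bp in the KrasLA1;Dicer1S2D libraries only.

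Of 3788 genes with at least 5 regions, those whose covered length over the 4 libraries was most like the summed AP-1 pattern were Alg14, Ttc39c and Ctbp2, at Euclidean distances of 0.0369, 0.0372 and 0.0399 between log2 covered lengths centred on the library median and on the gene's mean. In that pattern KrasLA1;Dicer1S2D replicate 1 was low, at -0.30 for the AP-1 sum, and the other 3 libraries lay between 0.08 and 0.12. A match over 4 libraries describes these libraries alone.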
